A study of Gallus gallus with 19 samples.

Results

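The genes described here encode the ligands and receptors through which cells and axons read guidance signals from their surroundings. They were chosen by symbol, as the genes named for ephrins, Eph receptors, semaphorins, plexins, neuropilins, Slits, Robos, netrins and UNC5 receptors, and 53 of the 18996 genes tested carried such a symbol. One of them, UNC50, is a Golgi protein that only shares letters with the UNC5 receptors, so families and counts below cover the other 52 genes, 27 ligands and 25 receptors. Symbols decided membership among the genes that passed the filter on low counts. The set itself was chosen with earlier results of these data known.

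Chicken embryos of wild-type genotype were electroporated at Hamburger Hamilton stage 4 (HH4, gastrula). One side of each embryo received a translation blocking morpholino (MO) to Nanog, PouV or Klf4, the opposite side received control MO, and both received an empty carrier vector. The neural plate border at midbrain level was collected at HH7 to HH8- and pooled over several embryos, and bulk RNA sequencing was performed to ask what each of these pluripotency factors does in the ectoderm. The Nanog experiment gave 4 knockdown and 4 control samples, the PouV experiment 3 and 2, and the Klf4 experiment 4 and 2, so that the controls numbered 8. Control and knockdown samples of one replicate number were taken as the opposite sides of the same embryos. The sample titles give the replicate number but do not name the embryos. This gives 8 pairs (4 Nanog, 2 PouV and 2 Klf4), while Klf4 MO replicates 2 and 4 and PouV MO replicate 4 have no partner. All control sides therefore carried a MO and the vector, faced a knockdown side in the same embryo, and none came from untreated embryos.

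Guidance ligands steer by attraction or repulsion. Ephrins sit on the cell surface and bind Eph receptor tyrosine kinases on the neighbouring cell, with signalling into both cells, and this keeps groups of cells apart at tissue boundaries. Semaphorins signal through plexins, the secreted class 3 semaphorins mostly with a neuropilin as co-receptor. Slits signal through Robo receptors, and netrins through UNC5 receptors and DCC. In vertebrate embryos several of these systems also confine the streams of migrating neural crest, which later leaves the border region sampled here.

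Total counts ran from 31215191 to 44726348 per sample with a median of 39160549, of which the 52 guidance genes together took 0.292% to 0.428%. The lowest count of any of them in any sample was 11, so each was measurable in every sample. Passing the filter on low counts was a condition of membership. The dissected tissue held the border marker PAX7 at 22.0 ± 10.9 CPM and TFAP2A at 139.1 ± 34.6 CPM (SD, n = 8 controls), where CPM is counts per 1000000 of the TMM-scaled library size. It also held other tissues in varying amounts: over the 8 controls the summed level of 10 endoderm markers ran from 204.5 to 1221 CPM and that of 10 notochord and floor plate markers from 189.8 to 969.3 CPM. In bulk samples, fewer cells of a type and less RNA per cell cannot be told apart. The MOs block translation, so the mRNA of a targeted gene does not check its knockdown. NANOG was at 6.39 ± 1.26 CPM in Nanog MO (SD, n = 4) against 7.99 ± 3.51 in the controls (n = 8), Pou5f3, the gene of PouV, at 1224 ± 263.7 in PouV MO (n = 3) against 868.6 ± 140.8, and KLF4 at 8.06 ± 4.34 in Klf4 MO (n = 4) against 6.72 ± 1.38, and none of these passed the test.

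In the controls, 12 of the 52 genes had a mean of at least 100 CPM, 33 lay between 10 and 100 CPM and 7 lay below 10 CPM. CPM is not divided by transcript length, so the levels of different genes are not ranked against each other here. The spread between the 8 control samples differed widely from gene to gene. In 12 genes the highest control was less than 1.5 times the lowest, and in 7 genes it was more than 3 times the lowest. SEMA3F and EPHA2 were the steadiest, at 368.0 ± 12.1 CPM and 54.5 ± 3.56 CPM (SD, n = 8 controls), whereas SEMA3E, SEMA3D, UNC5A, NTN4, NTN1, PLXNA2 and SEMA3C were the 7 that varied most. The median SD of log2 CPM between controls was 0.32 over the guidance genes and 0.24 over the 13781 genes with a mean of at least 1 CPM. The log2 ratio between both sides of the same embryos had a median SD over the 8 pairs of 0.31 over the guidance genes and 0.24 over those 13781 genes.

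**Figure D1:**
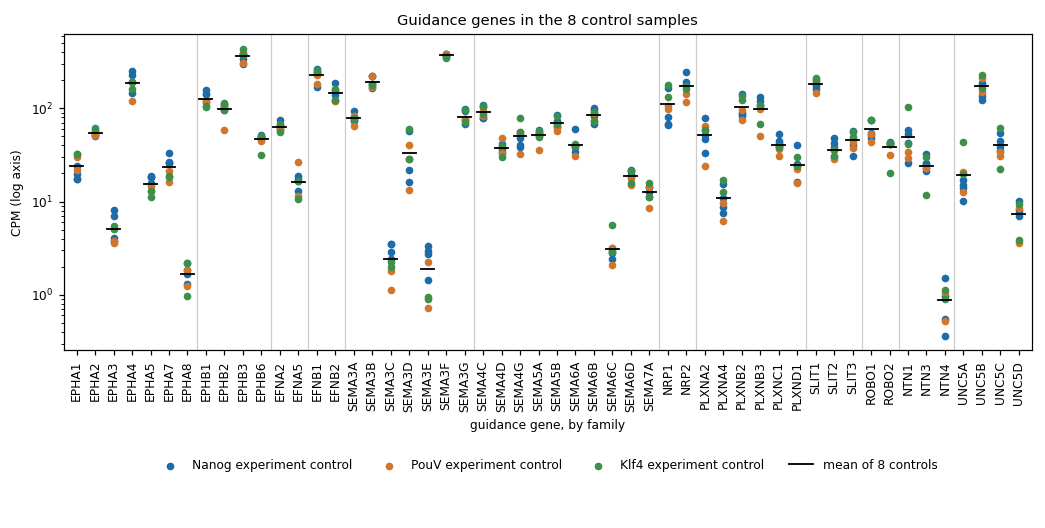
Level of each of the 52 guidance genes in the 8 control samples, grouped by family; the y axis is CPM on a log scale, points are single samples coloured by experiment and the black bar is the mean of the 8 controls. SEMA3F and EPHA2 form tight groups of points, whereas NTN1, SEMA3D, SEMA3E and UNC5A spread over more than 3-fold.

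Against all controls, Nanog knockdown raised EPHA2, the only guidance gene called in the comparisons of single knockdowns with all controls. A gene is called at an edgeR quasi-likelihood Benjamini-Hochberg adjusted p under 0.05 over all 18996 genes. In Nanog MO 1 of 52 guidance genes was called, beside 0.258% of all genes tested, which were all higher in the knockdown. PouV knockdown gave 0 of 52, beside 0.663% of all genes, and Klf4 knockdown gave 0 of 52, beside 0.0158%. At an unadjusted p under 0.05, edgeR gave 10 guidance genes in Nanog MO (7 higher and 3 lower, beside 5.82% of all genes, 3.89% higher and 1.93% lower). It gave 3 in PouV MO (all lower, beside 15.7% of all genes, 9.39% higher and 6.32% lower) and 3 in Klf4 MO (all lower, beside 6.09%, 2.77% higher and 3.31% lower), and DESeq2 called EPHA2 in Nanog MO and 0 guidance genes in the other knockdowns. The median log2 fold change of the 52 genes was -0.02 in Nanog MO, -0.11 in PouV MO and -0.08 in Klf4 MO, where the median over all genes tested was 0.00 in Nanog MO and -0.00 in both others. The guidance genes below their control level numbered 28 in Nanog MO, 39 in PouV MO and 36 in Klf4 MO, and these 3 comparisons share their 8 controls.

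**Figure D2:**
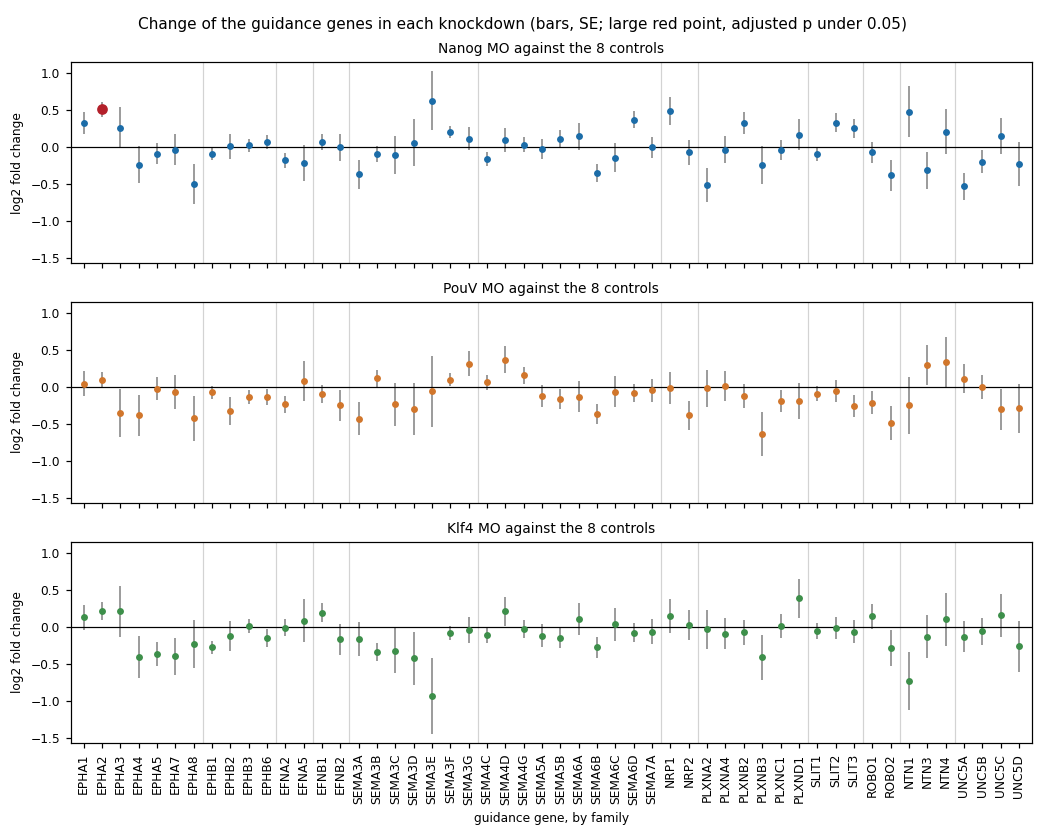
Log2 fold change of each of the 52 guidance genes in Nanog MO (n = 4), PouV MO (n = 3) and Klf4 MO (n = 4) against the 8 controls, with bars for the standard error; a large red point marks a gene with an edgeR adjusted p under 0.05. EPHA2 in Nanog MO is the single marked gene, and most PouV MO points (39 of 52) lie below 0.

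The lower median in PouV MO depended on 1 sample and on the fit. PouV MO replicate 3 was the lowest of all 19 samples for 17 of the 52 guidance genes. The next most frequent lowest sample, its paired control PouV experiment control replicate 3, was lowest for 7. How often these samples were lowest over all genes was not counted. Without PouV MO replicate 3 the median log2 fold change of the guidance genes was 0.01. With that sample kept, the median was 0.08 when the 2 controls of the PouV experiment replaced all 8. The latter fit also left out the factor of unwanted variation. In PouV MO replicate 3 the summed non-neural ectoderm and placode markers stood at 1927 CPM, above the range of 694.6 to 1507 CPM in the other 18 samples, and the part of this in the guidance genes was not tested.

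The Eph receptors are the largest receptor family of the set, with 7 EPHA and 4 EPHB genes. EPHA2, a receptor of epithelia and early embryonic tissues in vertebrates, was measured in the controls of the Nanog experiment at 52.8, 55.5, 50.4 and 54.4 CPM, in those of the PouV experiment at 51.8 and 52.3 CPM, and in those of the Klf4 experiment at 58.0 and 61.1 CPM. In Nanog MO it stood at 96.1, 72.2, 84.1 and 56.5 CPM. Replicates 1, 2 and 3 lay above every control and replicate 4 lay within the range of the controls. This gave a log2 fold change of 0.51 (SE 0.101, edgeR adjusted p = 0.0323). Levels in PouV MO were 57.3, 56.2 and 61.8 CPM and in Klf4 MO 68.0, 64.6, 67.3 and 60.4 CPM, with log2 fold changes of 0.09 (edgeR adjusted p = 0.719) and 0.21 (edgeR adjusted p = 0.886). The EPHA2 call was a narrow one. With the replicate block it was 0.52 (edgeR adjusted p = 0.0606), and without Nanog MO replicate 1 it was 0.39 (edgeR adjusted p = 0.207). It was past the threshold in 9 of the 19 fits that left out 1 sample each, with adjusted p between 0.000691 and 0.207. In the same comparison the summed non-neural ectoderm and placode markers ran from 1013 to 1507 CPM in Nanog MO. The controls ran from 694.6 to 1195 CPM. Nanog MO replicate 4, lowest in EPHA2, stood at 1263 CPM, and replicate 3 at 1013 CPM. Of the endoderm markers 7 of 10 were higher (0 called, median log2 fold change 0.59). So were 12 of 12 mesoderm markers, 10 of 10 blood and endothelium markers and 9 of 10 notochord and floor plate markers. Of the neural plate markers 8 of 12 were lower, as were 11 of 15 border and crest markers. In each list from endoderm to border and crest 0 were called. Of the non-neural ectoderm and placode markers 8 of 11 were higher, with 1 called higher and a median log2 fold change of 0.24. The part of these tissues in EPHA2 was not tested.

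EPHA2 was the 1 guidance gene that was higher on the knockdown side in 8 of 8 pairs, whichever gene was targeted (1.92% of the guidance genes, beside 1.73% of all genes tested). The log2 ratio within pairs was 0.86, 0.38, 0.74 and 0.06 in Nanog pairs 1 to 4, 0.15 and 0.10 in PouV pairs 1 and 3, and 0.23 and 0.14 in Klf4 pairs 1 and 3. The difference between the Nanog effect and the PouV effect on EPHA2, each against its own controls, was 0.39 on the log2 scale (95% interval -0.00 to 0.78, edgeR adjusted p = 0.587), so these samples do not show that the rise was particular to Nanog. Over the 8 pairs together the log2 fold change of EPHA2 was 0.34 (SE 0.0914, edgeR adjusted p = 0.0952).

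EPHA1, an Eph receptor found in epithelia in mammals, was singled out after its values were seen. It passed the test in Nanog MO only with each pool set against its other side. The controls of Nanog pairs 1 to 4 stood at 19.6, 23.9, 17.5 and 17.3 CPM and the Nanog MO sides at 30.7, 32.7, 25.1 and 26.6 CPM. All 4 Nanog MO samples were above all 4 controls of their experiment, a separation whose share over all genes was not counted. Yet the controls of the Klf4 experiment, at 32.3 and 32.1 CPM, were above 3 of the 4 Nanog MO samples. The log2 fold change was 0.32 against all controls (SE 0.151, edgeR adjusted p = 0.850) and 0.57 within pairs (SE 0.0846, edgeR adjusted p = 0.00941). The fit within pairs also held no factor of unwanted variation, unlike the model with all controls. Nanog pairs compared in this way gave 2 of 52 guidance genes called, EPHA1 higher and SEMA6B lower, beside 1.45% of all genes, whereas PouV and Klf4 pairs gave 0 of 52 (beside 0.384% and 0%) with edgeR. The Nanog effect on EPHA1 exceeded the PouV effect by 0.59 on the log2 scale (95% interval 0.30 to 0.88), with an unadjusted p of 0.00217 and an edgeR adjusted p of 0.454.

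EPHA4, a receptor that binds ephrins of both classes, was on average lower on the knockdown side. In the controls it ran from 119.0 to 252.0 CPM with a median of 190.1, in Nanog MO from 103.3 to 188.5, in PouV MO from 62.7 to 226.9 and in Klf4 MO from 113.9 to 159.3 CPM. These ranges overlapped in each knockdown, and none of the 3 comparisons with all controls passed the test. Within pairs EPHA4 was lower in 7 of 8, PouV pair 1 being the exception, with a log2 fold change of -0.35 over the 8 pairs (SE 0.0932, edgeR adjusted p = 0.0896). Shares over all genes were counted for 8 of 8 pairs alone. Signs in 7 or 6 of 8 pairs, here and below, have no such share beside them. EPHA8, a receptor near the limit of the measurement at 1.65 ± 0.44 CPM in the controls (SD, n = 8), was lower in 8 of 8 pairs with a log2 fold change of -0.48 (SE 0.158, edgeR adjusted p = 0.164). EPHA5 and EPHA7 were lower in 6 of 8 pairs each and EPHA3 in 2 of 8. EPHA1 and EPHA2 thus lay on the opposite side of 0 from EPHA4, EPHA5, EPHA7 and EPHA8 over the pairs, and 2 of the 7 EPHA genes had an unadjusted p under 0.05 in the higher and 3 in the lower direction, beside 7.41% and 7.75% of all genes, and 0 of the 7 were called.

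**Figure D3:**
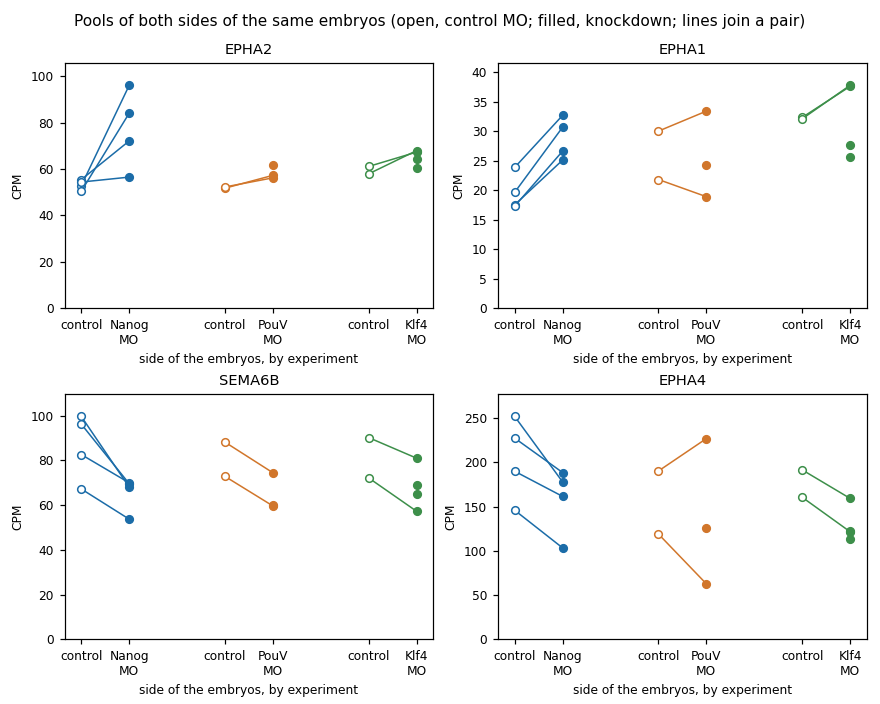
CPM of EPHA2, EPHA1, SEMA6B and EPHA4 by side of the embryo and experiment; open points are control MO samples, filled points are knockdown samples, and lines join the 8 pairs of the same embryos. EPHA2 goes up and SEMA6B goes down along all 8 lines, and EPHA1 goes up and EPHA4 goes down along 7 of 8.

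The EPHB receptors, which bind the transmembrane ephrin-B ligands, were not called in these comparisons. EPHB3 stood at 362.0 ± 43.7 CPM in the controls (SD, n = 8) and its log2 fold changes lay between -0.14 and 0.02 in the 3 knockdowns. Its intervals were narrow: the SE of these log2 fold changes was 0.0839 to 0.0987. EPHB1, which restricts cranial crest streams together with EPHA4 in the frog, differed most in Klf4 MO. There it was measured at 87.0, 84.1, 88.7 and 99.1 CPM, all below the lowest of the 8 controls, which ran from 102.1 to 157.5 CPM. The Klf4 experiment's own controls were themselves the 2 lowest, at 105.0 and 102.1 CPM. The log2 fold change was -0.28 (SE 0.0926) with an unadjusted p of 0.00692 and an edgeR adjusted p of 0.505. Without the factor of unwanted variation it was -0.48 (edgeR adjusted p = 0.0301), and without Klf4 experiment control replicate 3 it was -0.37 (edgeR adjusted p = 0.0232). Of 27 alternative fits only these 2 passed the threshold, and over all 27 the EPHB1 value ran from -0.48 to -0.21. Klf4 MO had 2 guidance genes, EPHB1 and SEMA3B, with all samples below all controls (beside 1.37% of all genes) and 1, ROBO1, with all samples above (beside 1.33%).

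Of the ligands of these receptors, EFNA2, a membrane-anchored ephrin, was lower in 7 of 8 pairs. Its level was 63.4 ± 5.94 CPM in the controls (SD, n = 8), 55.6 ± 3.25 in Nanog MO (n = 4), 54.2 ± 6.77 in PouV MO (n = 3) and 65.5 ± 10.3 in Klf4 MO (n = 4). The log2 fold change over the 8 pairs was -0.18 (SE 0.0596, edgeR adjusted p = 0.173). EFNA5 ran from 10.6 to 26.3 CPM in the controls and was lower in 6 of 8 pairs, with a log2 fold change of -0.13 over them (edgeR adjusted p = 0.524). EFNB1 stood at 258.1, 310.5, 302.6 and 343.8 CPM in Klf4 MO, where 3 of 4 samples were above the highest of the 8 controls (264.0 CPM). Its log2 fold change of 0.19 there (SE 0.129, edgeR adjusted p = 0.932) came from the model used for the comparisons with all controls. That model holds a factor of unwanted variation estimated from the controls. The factor ran from 0.29 to 1.93 in samples of the Klf4 experiment and from -1.46 to 0.03 in those of the Nanog experiment. It thus overlaps in part with the Klf4 comparison. Without that factor the EFNB1 value was 0.42 (edgeR adjusted p = 0.0899). EFNB2 ran from 119.2 to 184.4 CPM in the controls and was at 64.8 CPM in PouV MO replicate 3 against 161.1 and 138.4 CPM in the other PouV MO samples.

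Semaphorins form the largest family, with 7 class 3 genes and 10 of classes 4 to 7. SEMA6B, a membrane-bound semaphorin that binds class A plexins, was lower on the knockdown side in every one of the 8 pairs, as was EPHA8 (3.85% of the guidance genes, beside 2.52% of all genes tested). The controls of the Nanog experiment stood at 96.2, 67.2, 82.6 and 99.6 CPM and their Nanog MO sides at 69.5, 53.7, 69.9 and 68.0 CPM. The controls of the PouV experiment stood at 88.1 and 72.8 CPM with PouV MO sides at 74.4 and 59.6 CPM, and PouV MO replicate 4 was at 60.0 CPM. The controls of the Klf4 experiment stood at 72.1 and 90.1 CPM with Klf4 MO sides at 57.2 and 81.0 CPM, and the unpaired Klf4 MO replicates 2 and 4 were at 64.8 and 68.9 CPM. Within each experiment the levels of knockdown and control samples overlapped when the pairs were ignored.

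Over the 8 pairs the log2 fold change of SEMA6B was -0.32 (SE 0.0532, edgeR adjusted p = 0.0126). It was the 1 guidance gene of 52 called in this comparison, beside 1.53% of all genes tested. Log2 ratios within pairs ran from -0.55 to -0.16, with an SD of 0.13. Against all controls the log2 fold changes were -0.36 in Nanog MO, -0.37 in PouV MO and -0.28 in Klf4 MO, with edgeR adjusted p values of 0.523, 0.201 and 0.856, and none was called. Without Nanog pair 1 the value over pairs was -0.30 (edgeR adjusted p = 0.0612), and without the replicate block it was -0.32 (edgeR adjusted p = 0.385). SEMA6B is also on a list of genes that the study chose on these samples, so its place there is not independent evidence of the direction.

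At an unadjusted p under 0.05, 15 of 52 guidance genes were set apart over the 8 pairs, beside 15.2% of all genes tested (7.41% higher and 7.75% lower). The 5 higher ones were EPHA1, EPHA2, NTN4, SEMA3F and SEMA6D. The 10 lower ones were EFNA2, EPHA4, EPHA7, EPHA8, EPHB1, NRP2, PLXNB3, ROBO2, SEMA3A and SEMA6B. The median log2 fold change of the 52 genes was -0.06, beside 0.01 over all genes. Marker lists moved in the same pairs: all 10 endoderm markers were higher on the knockdown side (1 called, median log2 fold change 0.49) and 11 of 15 border and crest markers were lower (4 called, median -0.23). Of the neural plate markers 9 of 12 were lower (4 called, median -0.26), while 10 of 10 blood and endothelium markers (0 called, median 0.33) and 11 of 12 mesoderm markers (0 called, median 0.21) were higher. Non-neural ectoderm and placode markers were higher in 7 of 11 (1 called higher, median 0.18). Notochord and floor plate markers were lower in 6 of 10 (1 called lower, median -0.09). The part of these tissues in the guidance genes was not tested.

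**Figure D4:**
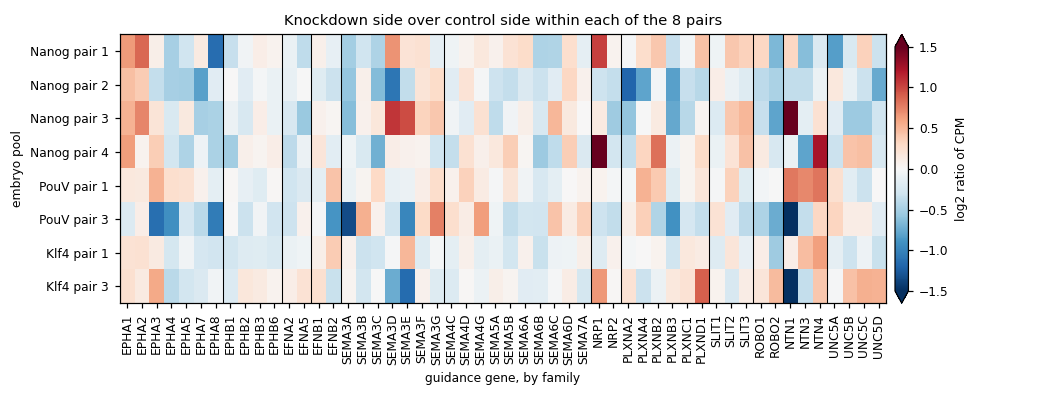
Log2 ratio of knockdown side over control side for each of the 52 guidance genes (columns, by family) in each of the 8 pairs of the same embryos (rows); red is higher and blue is lower on the knockdown side, and the colour scale ends at 1.5 in either direction. The EPHA2 column is red and the SEMA6B and EPHA8 columns are blue in all rows, whereas NTN1 is strongly red in Nanog pair 3 and strongly blue in PouV pair 3 and Klf4 pair 3.

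SEMA6D, another membrane-bound semaphorin, was at 25.8, 26.2, 21.4 and 24.4 CPM in Nanog MO against 15.2 to 21.7 CPM in the controls. Of these, 3 lay above every control, and the log2 fold change was 0.37 (SE 0.110, edgeR adjusted p = 0.344). SEMA4D, which signals through plexin B receptors, had the smallest p among the genes higher in PouV MO, with 60.5, 35.9 and 49.6 CPM against 30.1 to 47.7 CPM in the controls and a log2 fold change of 0.37 (SE 0.182, edgeR adjusted p = 0.333). Without PouV MO replicate 1 the SEMA4D value was 0.18, and with the replicate block it was 0.23. SEMA4G stood at 60.6, 49.6 and 61.0 CPM in PouV MO, within the control range of 32.0 to 79.2 CPM, with a log2 fold change of 0.15 against all controls and 0.37 with the replicate block (edgeR adjusted p = 0.254). SEMA4C, listed as a semaphorin-4C-like gene, stayed between 75.1 and 104.7 CPM in 18 of 19 samples and reached 108.9 CPM in 1 control, with log2 fold changes of -0.16 to 0.06.

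Among the secreted class 3 semaphorins, some of which repel neural crest cells that carry neuropilins, SEMA3F was the steadiest guidance gene in the controls and was higher in Nanog MO. The controls ran from 349.8 to 381.3 CPM and the Nanog MO samples stood at 444.3, 411.8, 451.8 and 395.4 CPM, so the groups did not overlap. It was the 1 guidance gene with all Nanog MO samples above all controls, beside 0.479% of all genes tested. Its log2 fold change was 0.20 (SE 0.0784) with an unadjusted p of 0.0200 and an edgeR adjusted p of 0.694. In PouV MO SEMA3F ran from 312.3 to 465.3 CPM and in Klf4 MO from 301.0 to 365.3 CPM, and PouV MO had 0 guidance genes without overlap with the controls in either direction (beside 1.06% of all genes higher and 0.848% lower).

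SEMA3B was lower in Klf4 MO, at 143.2, 143.7, 151.4 and 128.8 CPM against 164.3 to 223.0 CPM in the 8 controls, with no overlap. The log2 fold change was -0.34 (SE 0.126, edgeR adjusted p = 0.627), and without the factor of unwanted variation it was -0.44 (edgeR adjusted p = 0.0493). Only that 1 of 27 alternative fits passed the threshold, and over all 27 the SEMA3B value ran from -0.44 to -0.30. In PouV MO SEMA3B was at 228.7, 244.7 and 149.3 CPM, with a log2 fold change of 0.12 (edgeR adjusted p = 0.664). The PouV effect exceeded the Klf4 effect by 0.59 on the log2 scale (95% interval 0.22 to 0.96) with an unadjusted p of 0.00999 and an edgeR adjusted p of 0.567. SEMA3B, SEMA3F and SEMA3G all overlap the span of 1 further RefSeq gene, as EPHB1 does with KY, SEMA4D with SECISBP2 and SEMA6D with MYEF2, and whether reads were counted by strand was not given in the sources used here. EPHA1, EPHA2, EPHA4, NTN1 and SEMA6B overlap no other gene there. SEMA3G stood at 89.0, 127.6 and 83.7 CPM in PouV MO against 67.7 to 97.1 CPM in the controls, with a log2 fold change of 0.31 (SE 0.167, edgeR adjusted p = 0.375). Without PouV MO replicate 3 the SEMA3G value was 0.13, and with the replicate block it was 0.51 (edgeR adjusted p = 0.246).

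SEMA3A, the prototype collapsing factor of growth cones, was measured at 66.4, 53.6, 46.9 and 72.6 CPM in Nanog MO and at 76.3, 25.4 and 77.4 CPM in PouV MO, against 64.6 to 94.4 CPM in the controls. PouV MO replicate 3 was the lowest of all samples. Its log2 fold change over the 8 pairs was -0.38 (SE 0.131, edgeR adjusted p = 0.185), and it was lower in 6 of 8 pairs. In Klf4 MO all 7 class 3 genes had a log2 fold change below 0, with a median of -0.33 and 0 of 7 called by edgeR or DESeq2, where 9529 of all 18996 genes were below 0. With the replicate block 6 of the 7 were below 0, with a median of -0.16. At an unadjusted p under 0.05 there was 1 of these 7, SEMA3B, beside 3.31% of all genes lower.

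The receptors for semaphorins are 6 plexins and 2 neuropilins. NRP1, which also serves as a co-receptor for VEGF, had a wide range in the controls. It stood at 80.0, 163.1, 67.8 and 66.7 CPM in the Nanog experiment, at 99.0 and 104.5 CPM in the PouV experiment and at 178.3 and 130.9 CPM in the Klf4 experiment. In Nanog MO it was at 162.4, 131.3, 74.1 and 215.0 CPM, with a log2 fold change of 0.49 (SE 0.190, edgeR adjusted p = 0.692), and the groups overlapped. Without Nanog MO replicate 4 the NRP1 value was 0.27. The 3 controls with NRP1 at or below 80.0 CPM were those with summed endoderm markers of 301.5, 204.5 and 229.8 CPM, and the other 5 controls had endoderm sums of 524.0 CPM or more. The same 3 controls also had the lowest sums of non-neural ectoderm and placode markers (835.4, 694.6 and 761.9 CPM). They had the highest sums of neural plate markers (2139, 1689 and 1930 CPM) as well. The part of these tissues in NRP1 was not tested. NRP2 ran from 115.6 to 245.5 CPM in the controls and its log2 fold changes lay between -0.38 and 0.02, the lowest in PouV MO (SE 0.197, edgeR adjusted p = 0.352).

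PLXNB3, a plexin of class B, was lower on the knockdown side in 7 of 8 pairs. It ran from 50.7 to 130.9 CPM in the controls and stood at 86.3, 27.1 and 77.7 CPM in PouV MO. Its log2 fold change there was -0.64 (SE 0.298, edgeR adjusted p = 0.304), and without PouV MO replicate 3 it was -0.28. Over the 8 pairs the value was -0.40 (SE 0.107, edgeR adjusted p = 0.0932). PLXNB2 was at 114.0, 136.4, 98.4 and 146.2 CPM in Nanog MO against 75.5 to 140.5 CPM in the controls, with a log2 fold change of 0.32 (SE 0.144, edgeR adjusted p = 0.796). PLXND1, the receptor of SEMA3E in the mouse vasculature, was at 26.4, 36.0, 56.2 and 46.1 CPM in Klf4 MO against 15.6 to 40.8 CPM in the controls, with a log2 fold change of 0.38 (SE 0.264, edgeR adjusted p = 0.932). This PLXND1 value was 0.73 without the factor of unwanted variation (edgeR adjusted p = 0.0927) and about 0.60 with the controls of the same experiment. Leaving out Nanog experiment control replicate 2, Klf4 experiment control replicate 3 or Klf4 MO replicate 1 gave 0.60, 0.59 and 0.58. Over the 19 fits that left out 1 sample each, the value moved both ways, from 0.28 to 0.60. In Klf4 MO all 10 blood and endothelium markers measured were higher (0 called, median log2 fold change 0.55), their summed level running from 288.1 to 395.7 CPM against 208.4 to 506.3 CPM in all controls and 248.8 to 255.2 CPM in those of the Klf4 experiment. CDH5, the cadherin of endothelial cells, was at 11.5 to 18.1 CPM in Klf4 MO and at 3.37 and 1.44 CPM in the controls of that experiment. Over all 8 controls CDH5 ran from 0.84 to 11.7 CPM. KDR, of the same list, ran from 134.9 to 170.3 CPM in Klf4 MO and stood at 126.5 and 152.3 CPM in the Klf4 experiment's own controls. The part of this tissue in PLXND1 was not tested. PLXNA2, PLXNA4 and PLXNC1 had no adjusted p under 0.05 in any comparison.

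Slit and Robo genes showed no called change. SLIT1 was one of the steadier ligands, at 182.4 ± 22.0 CPM in the controls (SD, n = 8), 167.9 ± 8.28 in Nanog MO (n = 4), 172.7 ± 21.6 in PouV MO (n = 3) and 188.4 ± 25.3 in Klf4 MO (n = 4). Its log2 fold change over the 8 pairs was -0.02 (SE 0.0549), with a 95% interval of -0.13 to 0.09. SLIT3 was at 59.2, 50.2, 43.4 and 55.0 CPM in Nanog MO and 30.8 to 57.2 CPM in the controls, with a log2 fold change of 0.25 (SE 0.133, edgeR adjusted p = 0.911). ROBO1 stood at 80.4, 80.6, 85.3 and 86.9 CPM in Klf4 MO, above every control, of which the Klf4 experiment's own were the highest at 75.0 and 75.4 CPM. Its log2 fold change in the model was 0.14 (SE 0.167, edgeR adjusted p = 0.957). ROBO2 was lower in 7 of 8 pairs, at 26.0, 30.5, 23.8 and 37.0 CPM in Nanog MO against 41.6, 42.5, 41.3 and 43.9 CPM on the other sides. This gave a log2 fold change of -0.54 within the Nanog pairs (SE 0.164, edgeR adjusted p = 0.164) and -0.37 over the 8 pairs (edgeR adjusted p = 0.164). The groups of the Nanog experiment were apart, and the share of all genes so separated was not counted. The control of Klf4 pair 3, at 20.0 CPM, was the lowest control and below all Nanog MO samples.

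NTN1, the netrin made by the floor plate and notochord, varied widely between pools of one group. The controls stood at 53.5, 59.0, 26.2 and 42.6 CPM in the Nanog experiment, 29.5 and 33.6 CPM in the PouV experiment and 41.6 and 102.7 CPM in the Klf4 experiment. Nanog MO samples were at 66.6, 45.6, 82.9 and 39.8 CPM, PouV MO samples at 51.2, 11.3 and 67.8 CPM and Klf4 MO samples at 44.6, 25.7, 29.7 and 48.8 CPM. The log2 fold changes of 0.47 in Nanog MO, -0.25 in PouV MO and -0.74 in Klf4 MO had SEs of 0.343, 0.387 and 0.389, and none was called (edgeR adjusted p = 0.972, 0.790 and 0.869). The direction differed between pairs of one knockdown, from a log2 ratio of 1.66 in Nanog pair 3 to -0.37 in Nanog pair 2, and from 0.79 in PouV pair 1 to -1.57 in PouV pair 3.

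The notochord and floor plate markers varied between the same pairs. Of the 10 markers, 9 were higher on the knockdown side in Nanog pair 3, 0 in Klf4 pair 3 and 3 in PouV pair 3, with median log2 ratios of 1.18, -0.90 and -0.33. PouV pair 1, with an NTN1 ratio of 0.79, had 7 of 10 markers higher but a median of only 0.12. CHRD, which encodes the BMP antagonist chordin of the notochord, went from 38.2 CPM on the control side to 789.7 CPM on the knockdown side in Nanog pair 3, where NTN1 had its highest ratio. In Klf4 pair 3 CHRD went from 662.0 to 38.7 CPM and in PouV pair 3 from 214.8 to 29.5 CPM, and these 2 pairs had the lowest NTN1 ratios, -1.79 and -1.57. NTN1 and CHRD lay on the same side of 0 in 7 of 8 pairs. Other markers of the list did not follow in every pair: in PouV pair 3 FOXA2 went from 44.8 to 53.2 CPM and the log2 ratio of NOTO was -0.20. SHH, the floor plate and notochord morphogen, was at 1.25 CPM in Nanog experiment control replicate 3 and 42.4 CPM on its other side. In Klf4 MO all 10 notochord and floor plate markers had a log2 fold change below 0 (0 called, median -0.53), and their summed level was 165.5 to 444.9 CPM against 189.8 to 969.3 CPM in the controls. SEMA3D and SEMA3E, which were among the genes of widest spread, also had their highest ratio in Nanog pair 3 (1.07 and 0.98), and SEMA3E had its lowest in Klf4 pair 3 (-1.16), but SEMA3D had its lowest in Nanog pair 2 (-1.08) and stood at -0.30 in PouV pair 3. The part of axial tissue in these genes was not tested.

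**Figure D5:**
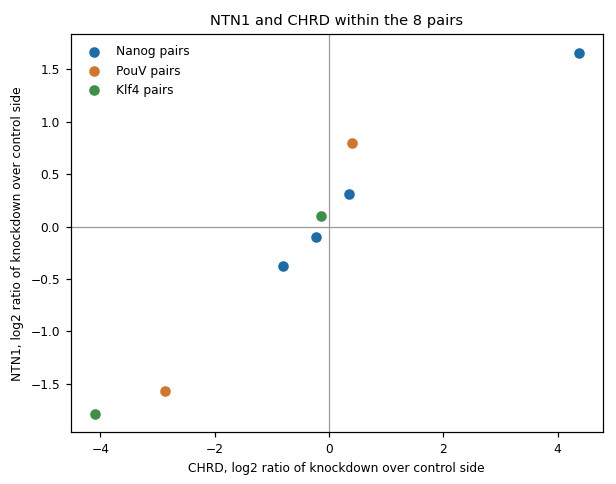
Log2 ratio of knockdown side over control side for NTN1 (y axis) against that for the notochord marker CHRD (x axis) in the 8 pairs, coloured by experiment. Nanog pair 3 lies at the upper right (CHRD 4.37, NTN1 1.66), PouV pair 3 and Klf4 pair 3 lie at the lower left, and the other 5 pairs lie closer to 0.

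The other netrins and the UNC5 receptors, which mediate repulsion from netrin, had no called change. NTN3 ran from 11.6 to 31.9 CPM in the controls and had log2 fold changes of -0.32, 0.29 and -0.13 in Nanog, PouV and Klf4 MO. NTN4 was near the limit of the measurement at 0.87 ± 0.38 CPM (SD, n = 8 controls). UNC5A was at 9.5, 15.6, 9.0 and 12.1 CPM in Nanog MO, with a log2 fold change of -0.54 (SE 0.183, edgeR adjusted p = 0.538), while the controls ran from 10.2 to 43.8 CPM. With the replicate block the UNC5A value was -0.28 (SE 0.137, edgeR adjusted p = 0.414), and the ratio was above 0 in Nanog pair 2. Klf4 pair 3 was far above all others for UNC5A on both sides, at 43.8 and 43.4 CPM. UNC5B stood at 172.5 ± 37.4 CPM in the controls (SD, n = 8) with log2 fold changes between -0.20 and 0.00, and UNC5C at 40.1 ± 12.8 CPM with log2 fold changes between -0.30 and 0.15. UNC50, the gene set aside above, was at 20.4, 20.6, 20.0 and 22.2 CPM in Klf4 MO, below all 8 controls (24.0 to 30.6 CPM), with a log2 fold change of -0.28 (SE 0.114, edgeR adjusted p = 0.708).

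The difference between the effects of any 2 knockdowns was tested for each gene within pairs, each knockdown against its own controls. No guidance gene was called in the 3 tests by edgeR, beside 0.00526% of all genes for Nanog minus PouV and 0% for the others. At an unadjusted p under 0.05 there were 5 guidance genes between Nanog and PouV (EPHA1, SEMA3B, SEMA4C, SLIT3 and UNC5A), 4 between Nanog and Klf4 (EPHA1, PLXNA2, PLXNC1 and SEMA3F) and 5 between PouV and Klf4 (SEMA3A, SEMA3B, SEMA3G, SEMA4C and SEMA4G), beside 8.74%, 5.69% and 7.75% of all genes. SLIT3 had a log2 fold change of 0.28 in Nanog pairs and -0.29 in PouV pairs, a difference of 0.57 (95% interval 0.19 to 0.94, edgeR adjusted p = 0.508).

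A list of co-receptors, further ligands and cytoplasmic partners of the guidance receptors was described in the same way. Of 78 listed genes 67 were measured, and 0 were called by edgeR in the 3 comparisons with all controls, where an unadjusted p under 0.05 was reached by 5 higher and 3 lower genes in Nanog MO, 2 higher and 18 lower in PouV MO, and 1 higher and 4 lower in Klf4 MO. The shares over all genes tested were 3.89% higher and 1.93% lower in Nanog MO, 9.39% and 6.32% in PouV MO, and 2.77% and 3.31% in Klf4 MO. Their median log2 fold change was -0.06 in Nanog MO, -0.25 in PouV MO and -0.06 in Klf4 MO. Over the 8 pairs 47 of the 67 were lower and 20 higher, where 9020 of all 18996 genes were lower. Of the 67 genes, 4 were called lower and 1 called higher, beside 0.805% of all genes called lower and 0.721% called higher. DRAXIN, a secreted repellent known in chick for its part in cranial crest migration, fell by 0.62 on the log2 scale (SE 0.0728, edgeR adjusted p = 0.00311) from a control level of 126.3 ± 53.6 CPM (SD, n = 8). RGMA, the repulsive ligand of neogenin, fell by 0.43 (SE 0.0716, edgeR adjusted p = 0.0125). DPYSL2 and DPYSL4, which belong to the collapsin response mediators downstream of semaphorins, fell by 0.30 (SE 0.0426, edgeR adjusted p = 0.00582) and 0.45 (SE 0.0677, edgeR adjusted p = 0.00830). LIMK2, a kinase that acts on cofilin, was the one called higher, by 0.26 (SE 0.0533, edgeR adjusted p = 0.0346). Single partner genes were not followed through the alternative fits. In the same pairs 11 of 15 border and crest markers were lower (4 called). The part of this tissue in the partner genes was not tested.

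Some guidance genes carry no symbol in the name table and were therefore not members. A RefSeq gene table gave 5 of them a matching symbol by gene ID: EPHA10, NTN4L, PLXNA1, ROBO4 and SEMA4B. None of these was called in the 3 comparisons with all controls. EPHA10 was lower over the 8 pairs, at 6.32 ± 2.86 CPM in the controls (SD, n = 8) with a log2 fold change of -0.58 (SE 0.128, edgeR adjusted p = 0.0438).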

How the data were processed

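The deposited raw counts per gene of 19 bulk RNA-seq samples were used, which the authors made from paired-end reads of ultra-low input libraries. The submitters' processing notes name STAR 2.7.2a, the GRCg6a genome, DESeq2, edgeR and limma, the last 3 without versions, and the annotation release and the strand of counting were not given in the sources used here. A second deposited count table holds those 18996 of 24356 genes whose count exceeded 5 in some sample, and these were tested. The deposited signal table of TMM-scaled CPM, normalised by the authors, was used for gene names alone, and CPM printed here were computed from the counts.

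Each knockdown was compared with all 8 controls in 1 edgeR 4.0.16 quasi-likelihood model of all 19 samples (R 4.3.3), with TMM scaling and 1 RUVs factor of unwanted variation estimated from the controls over 1000 genes of low variation. Calls were made at a Benjamini-Hochberg adjusted p under 0.05 over all genes. Pairs were fitted with the pair as a block and without the RUVs factor. This was done as "any knockdown over the 8 pairs" and with 1 effect for each experiment, whose differences were tested. Log2 ratios within pairs used a prior count of 2. Standard errors were derived from the F statistic, and 95% intervals are the estimate ± 1.96 SE. These intervals are approximate and narrower than the p values of the same tests would give. The edgeR fit against all controls and the fits with the block were tested first on simulated data, which held no differences between pools. The DESeq2 fits and the fit with the controls of the same experiment were not tested in this way.

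Samples were paired by replicate number, on the reading that both sides of the same embryos carry one number. The correlation of deviations within pairs was -0.0066 to 0.670 with a median of 0.554, and 7 of 8 pairs exceeded 0.1. Nanog pair 4 had the lowest value and showed no pairing by this measure. No further relation between pools was given, so p values measure the spread between these pools. The sources differ on the number of embryos in a pool, which is not given here. Alternatives were no or 2 RUVs factors, RLE scaling, DESeq2 1.42.0, other gene filters, each sample or pair left out, and members named by RefSeq. The controls of the same experiment and the block were 2 more, both without the RUVs factor, so they changed more than the controls or the pairing. Counting UNC50 as a member was added after seeing the data.

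The members and lists were chosen with earlier results of these data known. Genes described by rule were the called members, the 3 smallest p in each direction per knockdown with a mean of at least 1 CPM, the 2 highest control means per family, and SEMA6B. EPHA1, EPHA3, EPHA5, EPHA7, EPHA8, SEMA3A, SEMA3D, SEMA3E and other genes outside it were chosen after their values were seen. Of the 53 members, 52 matched a RefSeq gene table (GRCg7b), used for names and neighbours alone. Within the 52 guidance genes, NTN3 carries the description netrin 1 in the authors' table.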

Additional observations from a re-analysis of the deposited data

Results flagged for a closer look

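Within the groups of 4 to 8 samples of 31 described genes, 124 groups were searched for 1 sample far from the rest, which chance gives in about 1 in 20 groups, and 8 were found. NRP1 and PLXNB2 were both highest in Nanog experiment control replicate 2, at 163.1 CPM against 66.7 to 80.0 CPM in the other 3 controls of that experiment for NRP1, and at 140.5 CPM against 82.3 to 89.3 CPM for PLXNB2. NTN1 and UNC5A were both highest in Klf4 experiment control replicate 3, at 102.7 CPM against 26.2 to 59.0 CPM in the other controls for NTN1, and at 43.8 CPM against 10.2 to 20.9 CPM for UNC5A. ROBO1 was lowest in Nanog MO replicate 3, at 40.7 CPM against 56.8 to 59.5 CPM. SEMA3G was highest in Klf4 MO replicate 3, at 83.0 CPM against 69.6 to 71.1 CPM. SEMA6B was lowest in Nanog MO replicate 2, at 53.7 CPM against 68.0 to 69.9 CPM, and the control side of that pool was also the lowest of its experiment at 67.2 CPM. UNC50, which is no guidance gene, was highest in PouV experiment control replicate 3, at 30.6 CPM against 24.0 to 27.1 CPM.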

How the results depend on the processing

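For the genes of smallest p in each knockdown and SEMA6B, 17 values in all, no log2 fold change turned its direction under the alternatives run, while other guidance genes did: with the replicate block 19 of 52 were higher in PouV MO where 13 were without it, and 1 of 4 EPHB genes was higher in Nanog MO where 3 were. In Nanog MO the number of guidance genes called went from 1 to 0 without the RUVs factor and with the controls of the same experiment, to 2 with the replicate block, and lay between 0 and 1 when 1 sample was left out. EPHA2 lost its call without Nanog MO replicate 1, 2 or 3, Nanog experiment control replicate 1, 3 or 4, PouV experiment control replicate 1 or 3, Klf4 experiment control replicate 1, or Klf4 MO replicate 2, with log2 fold changes of 0.39 to 0.55. In PouV MO the count lay between 0 and 1 (ROBO2, without PouV MO replicate 1), and the median log2 fold change of the guidance genes was 0.082 with the controls of the same experiment and -0.22 to 0.01 with 1 sample left out. In Klf4 MO it was 2 without the RUVs factor and 0 to 2 with 1 sample left out. Over the 8 pairs it was 5 with DESeq2 and the replicate block (EPHA1, EPHA2, EPHA4, PLXNB3 and SEMA6B), 0 with no replicate block, and 0 to 3 with 1 pair left out, 0 without Nanog pair 1, 3 without Klf4 pair 3 and 2 without PouV pair 1 or 3. The counts with 1 sample or pair left out have no share over all genes beside them. The cause of these shifts was not tested.

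Over all genes, 49 were called in Nanog MO, against 115 with DESeq2, 26 without the RUVs factor and 275 with the replicate block. In PouV MO 126 were called, against 507 with DESeq2, 63 without the RUVs factor and 0 with the controls of the same experiment. In Klf4 MO 3 were called, against 78 with DESeq2 and 440 without the RUVs factor. Over the 8 pairs 290 were called, against 795 with DESeq2 and 24 with no replicate block. Low counts bear most on EPHA8, NTN4 and SEMA3E, which had a control mean below 2 CPM.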
